A study of Saccharomyces cerevisiae with 10 samples.

Results

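The genes described here are EDC3 and 9 others of mRNA decapping in the budding yeast Saccharomyces cerevisiae: the decapping enzyme genes DCP2 and DCP1, the activator genes EDC1, EDC2, DHH1, PAT1 and SCD6, the exonuclease gene XRN1 and the scavenger decapping gene DCS1. They were chosen by gene name, as the probe sets that the array's annotation assigns to one gene among these 10, out of 5656 genes with such a probe set. Each gene had 1 such probe set, giving 10 of the 9335 probe sets on the array, and 0 further probe sets named one of these genes together with another gene. The study compared an edc3 deletion strain with the wild-type strain HFY114, which its design text calls isogenic with the deletion. Cells of both strains were grown in YEPD, a rich glucose medium, at 30°C without treatment, and the RNA of each of 10 samples was measured on a separate array (Affymetrix Yeast Genome S98), 5 for each strain. The deletion strain is CFY25 in the sample labels but SYY14 in the design text. The sources used here do not give how EDC3 was removed or whether one clone was used. The labels pair the strains by a letter, so that experiments A, B, C, E and G each hold 1 deletion array and 1 wild-type array.

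Eukaryotic mRNA carries a cap at its 5′ end. In the main cytoplasmic decay route the poly(A) tail is shortened, the Dcp1-Dcp2 enzyme removes the cap and the exonuclease Xrn1 degrades the body of the RNA from its 5′ end. Edc3, Edc1, Edc2, Dhh1, Pat1 and Scd6 bind the enzyme or its substrates and promote decapping or hold back translation, and Dcs1 hydrolyses the cap remnant left when an mRNA is degraded from its other end.

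The values are MAS5 signals, 1 per probe set and array, in arbitrary linear units that allow a probe set to be compared between arrays but not with another probe set. Median signals per array ran from 58.2 to 66.8. The arrays of experiments E and G were nearly alike within each strain. Between their log2 signals the median absolute deviation, over the 2653 probe sets whose mean signal exceeded 200, was 0.0556 in the deletion strain and 0.0614 in wild type, against 0.141 to 0.325 for the other pairs of arrays of one strain. The sources used here do not say whether they are separate cultures or repeat hybridisations, so values are shown by experiment and with E and G apart. The genes specific to MATa haploid cells, STE2, STE6, BAR1, MFA1, MFA2 and AGA2, had overlapping signals in both strains, and STE3, the a-factor receptor gene of MATalpha cells, had 4.4 to 9.6 on deletion arrays and 2.5 to 17.5 on wild-type arrays. SAG1, the alpha-agglutinin gene of MATalpha cells, had 65.7 to 89 on deletion arrays and 67.7 to 108.8 on wild-type arrays, and the alpha-factor genes MFALPHA1 and MFALPHA2 had no probe set under those names.

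EDC3 (YEL015W), the deleted gene, was the only one of the 9 tested genes that passed the test over all 10 arrays. Its signal was 1.0, 1.8, 0.1, 2.3 and 1.7 on the deletion arrays of experiments A, B, C, E and G, against 473.6, 480.5, 466.8, 465.4 and 456.8 on the wild-type arrays. Every deletion array was therefore far below every wild-type array, and the strain labels of all 10 arrays matched the EDC3 signal. The deletion signals lay in the range of the 4 mouse control probe sets, which have no yeast target and reached 4.8 on the deletion arrays and 4.5 on the wild-type arrays. With the deletion signal of each array set to the brightest mouse control or to EDC3 itself, whichever was higher, the gene was at least 222-fold lower in the deletion strain. EDC3 entered the limma fit over 6492 probe sets through its wild-type signal alone, and its deletion values are at background, so its adjusted p of 1.73e-04 is a check of the labels and supports nothing further.

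In wild-type cells the EDC3 signal hardly varied. Its coefficient of variation over the 5 wild-type arrays was 1.91%, against a median of 14.9% over all tested probe sets, and 0.0924% of the tested probe sets, EDC3 included, varied as little. Experiments E and G, which stood apart for other genes, differed little from A to C for EDC3. Their wild-type mean was 461.1, against 473.6 for experiments A to C, or 0.974-fold on the log2 scale. Both of their wild-type signals, 465.4 and 456.8, were below the lowest of A to C, 466.8.

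**Figure D1:**
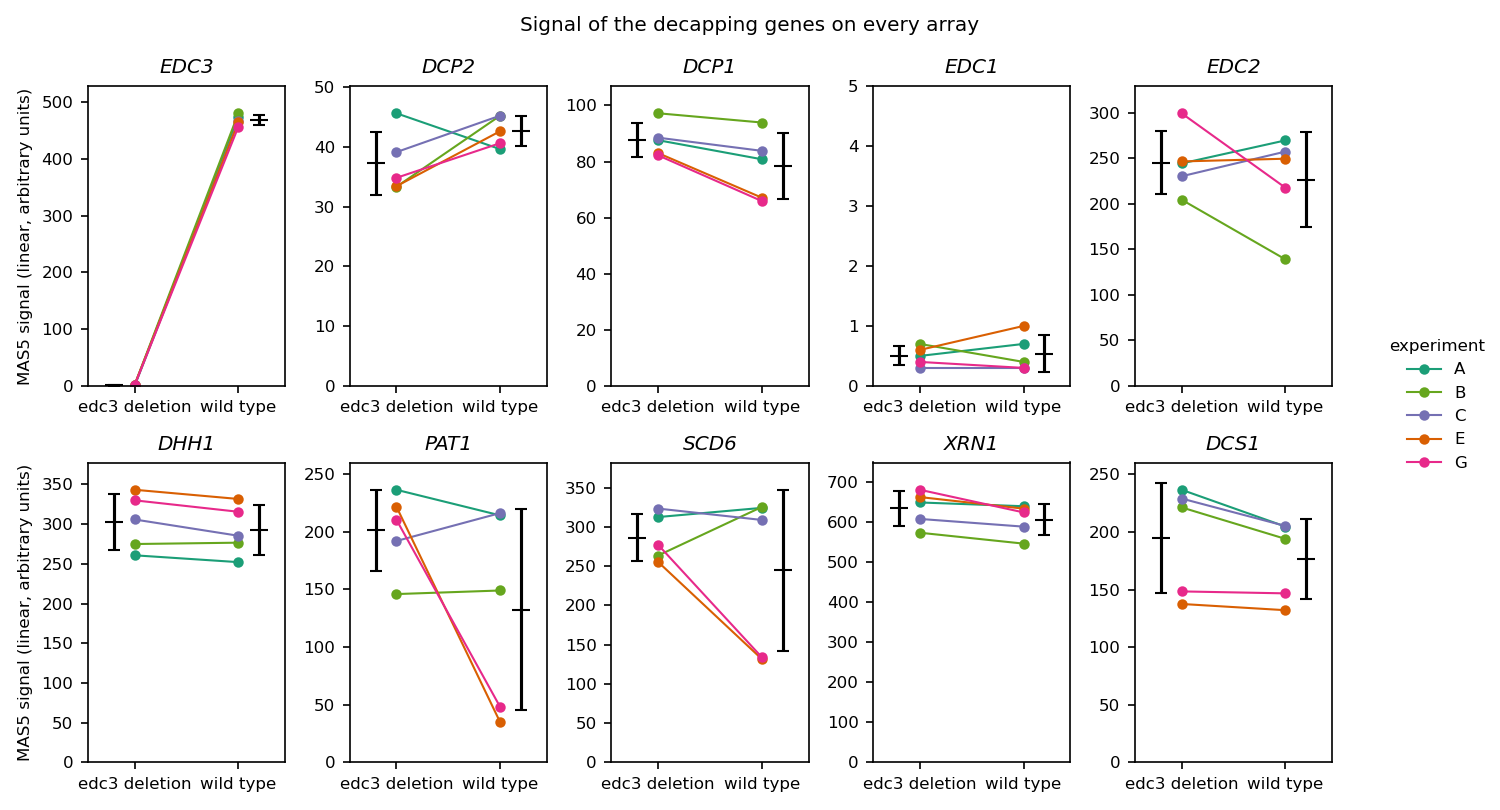
Signal of each gene (y axis, MAS5 signal, linear) on the edc3 deletion arrays (left) and wild-type arrays (right), with a line joining the arrays of one experiment and a bar for the mean ± SD (n = 5). EDC3 is near 0 on the deletion arrays, EDC1 is at 1.0 or less on all 10 arrays, and PAT1 and SCD6 are low on the wild-type arrays of experiments E and G alone.

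Of the other 8 tested genes, 0 passed the limma test between the strains, with adjusted p-values of 0.999, and 0 had an unadjusted p under 0.05. Over all 6492 tested probe sets the fit called 5, which is 0.0770%, and 4.82% had an unadjusted p under 0.05. With the experiment as a block, EDC3 remained the 1 gene called of the 9 (adjusted p-values of the other 8 from 0.190 to 0.559), against 0.447% of all tested probe sets, and 1 of the 8, DCP1, had an unadjusted p under 0.05, against 23.1% of all. The signals of the strains overlapped for all 8 genes, and 1.20% of the tested probe sets had strains that did not overlap. The median log2 difference of the 8 genes, deletion minus wild type, was 0.13, with 7 higher and 1 lower. Over all tested probe sets the median was -0.004, with 3173 higher and 3319 lower. PAT1 and SCD6, among the 7, were at -0.02 and -0.10 in experiments A to C alone.

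For neither gene of the decapping enzyme did the strains differ beyond the spread between arrays. DCP2 (YNL118C), which encodes the enzyme that cuts the cap, had signals of 45.6, 33.3, 39.1, 33.4 and 34.8 on the deletion arrays of A, B, C, E and G, against 39.6, 45.2, 45.2, 42.6 and 40.6 on the wild-type arrays. It was lower in the deletion in 4 of 5 experiments and higher in experiment A, and the ranges overlapped. The log2 difference was -0.20 ± 0.12 (SE), with a 95% interval from 0.723-fold to 1.04-fold, and the exact permutation p was 0.0714.

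DCP1 (YOL149W), which encodes the activating subunit of the enzyme, had 87.6, 97.2, 88.5, 83.0 and 82.2 on the deletion arrays of A, B, C, E and G, against 80.8, 93.9, 83.8, 67.1 and 65.9 on the wild-type arrays. The deletion array was the higher one in all 5 experiments, by 1.04-fold to 1.08-fold in A to C and by 1.24-fold and 1.25-fold in E and G. The log2 difference was 0.17 ± 0.12 (SE, exact permutation p = 0.159), with a 95% interval from 0.944-fold to 1.35-fold. With the experiment as a block the interval ran from 1.01-fold to 1.26-fold, at a limma adjusted p of 0.190. Of all tested probe sets, 10.2% were higher in the deletion in all 5 experiments.

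EDC1 (YGL222C) and EDC2 (YER035W) encode small, related RNA-binding proteins that stimulate Dcp2. EDC1 gave no usable value. Its signal was 0.3 to 0.7 on the deletion arrays and 0.3 to 1.0 on the wild-type arrays, on every array no higher than the highest mouse control, and it was among the dimmest 30% of probe sets that were not tested. A low signal of this kind cannot be told from none, so it says nothing about EDC1 mRNA in either strain.

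EDC2 had 244.3, 204.5, 230.2, 246.5 and 299.4 on the deletion arrays of A, B, C, E and G, against 269.6, 139.0, 257.3, 249.5 and 217.7 on the wild-type arrays. It was higher in the deletion in experiments B and G and lower in the other 3, with experiment B lowest in both strains. The log2 difference was 0.14 ± 0.18 (SE, exact permutation p = 0.603), and its 95% interval ran from 0.844-fold to 1.44-fold. Without the wild-type array of experiment B the difference turned to -0.03.

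DHH1 (YDL160C), the gene of a DEAD-box RNA helicase that represses translation and activates decapping, gave one of the narrowest comparisons. Its signal was 260.7, 274.9, 305.8, 343.2 and 329.9 on the deletion arrays of A, B, C, E and G, against 252.1, 276.6, 285.3, 331.6 and 315.5 on the wild-type arrays. Within each experiment the strains were close, with log2 differences from -0.01 to 0.10, while experiments E and G were the highest in both strains. The log2 difference over all arrays was 0.05 ± 0.11 (SE, exact permutation p = 0.659), with a 95% interval from 0.879-fold to 1.22-fold.

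PAT1 (YCR077C) encodes a scaffold protein that binds the Lsm1-7 ring and Dcp2, and its strain difference depended on the experiment. The PAT1 signal was 236.3, 145.9, 191.9, 221.7 and 210.4 on the deletion arrays of A, B, C, E and G, against 214.1, 149.0, 216.1, 34.9 and 48.1 on the wild-type arrays. The wild-type arrays of E and G were the 2 lowest of the 10, and the lowest of the other 8 arrays was 3.03-fold above the higher of them. The deletion arrays of E and G, at 221.7 and 210.4, lay within the deletion range of experiments A to C, 145.9 to 236.3, and that of E was above the highest wild-type signal there, 216.1.

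The log2 difference of PAT1 was therefore 2.67 in experiment E and 2.13 in G, or 6.35-fold and 4.37-fold, against 0.14, -0.03 and -0.17 in A, B and C. Over all arrays it was 0.95 ± 0.48 (SE, exact permutation p = 0.183), with a 95% interval from 0.939-fold to 3.96-fold. In experiments A to C alone it was -0.02 ± 0.21 (SE, limma adjusted p = 0.999), and blocking on the experiment put the ratio there between 0.852-fold and 1.14-fold. Fits of A to C alone called 0.0308% of all probe sets without the block and 0.0462% with it. In experiments E and G alone it was 2.40 ± 0.16 (SE, limma adjusted p = 5.82e-04), in a fit that called 19.5% of all probe sets (35.1% with the block) and whose spread comes from arrays that were nearly alike. PAT1 had been singled out from earlier results on these arrays, so this p adds no support, and the difference between the experiments was not tested. In RNA from whole cultures, a lower level in every cell and a loss in part of the cells cannot be told apart.

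SCD6 (YPR129W), which encodes an RGG-repeat protein that represses translation initiation and has an LSm-type domain like Edc3, was low on the same 2 arrays. Its signal was 312.7, 263.7, 323.5, 255.5 and 277.3 on the deletion arrays of A, B, C, E and G, against 324.4, 325.6, 309.0, 131.7 and 134.0 on the wild-type arrays. The lowest of the other 8 arrays was 1.91-fold above the higher of the wild-type arrays of E and G. The log2 difference was 0.96 in experiment E and 1.05 in G, against -0.05, -0.30 and 0.07 in A, B and C. Over all arrays it was 0.34 ± 0.27 (SE, exact permutation p = 0.413), with a 95% interval from 0.841-fold to 1.91-fold. It was -0.10 ± 0.12 (SE, limma adjusted p = 0.999) in experiments A to C alone and 1.00 ± 0.06 (SE, limma adjusted p = 5.82e-04) in E and G alone, in the same fit on nearly alike arrays as for PAT1, so that this p adds no support either.

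**Figure D2:**
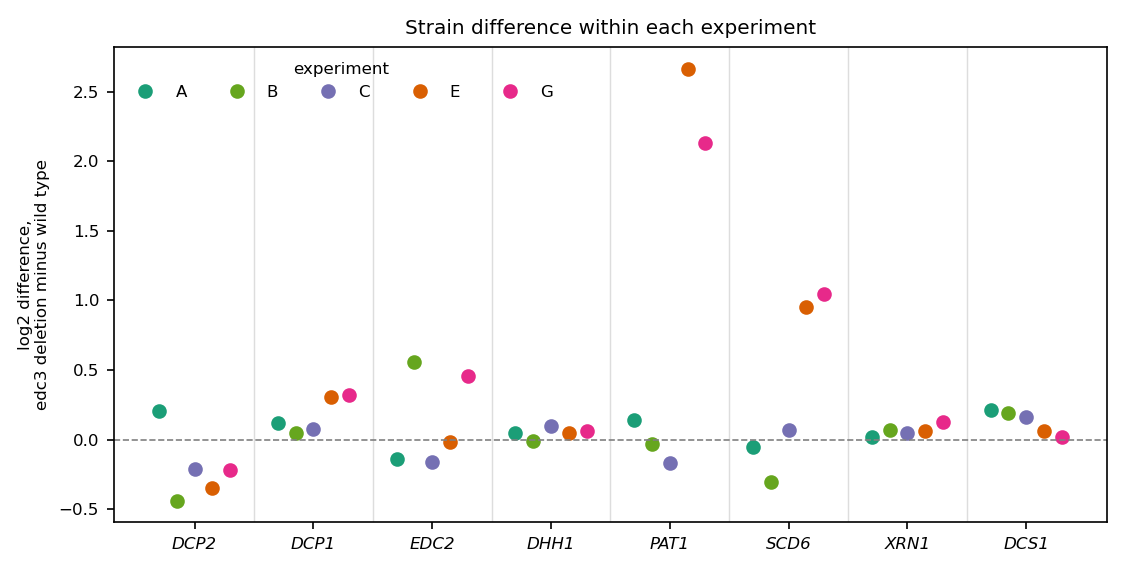
Log2 difference between the edc3 deletion and the wild-type array of each experiment (y axis) for the 8 tested genes other than EDC3 (x axis), 1 point per experiment. PAT1 and SCD6 lie between -0.30 and 0.14 in experiments A to C. In experiments E and G, PAT1 lies at 2.67 and 2.13 and SCD6 at 0.96 and 1.05. XRN1, DHH1 and DCS1 stay within a narrow band in all 5.

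PAT1, SCD6 and DCP1 had both wild-type arrays of E and G below all 8 others, which 10.8% of the tested probe sets also had. For DCP1 the gap was 1.20-fold. A gap of at least 2-fold, as for PAT1, was found at 23 of 6492 probe sets, or 0.354%, and the reverse, both arrays at least 2-fold above the 8 others, at 0. In experiment E the PAT1 difference was the 9th highest of the 6492 and in G the 8th highest, and the SCD6 difference was the 108th and the 78th highest. A difference of at least 2-fold higher in the deletion in both E and G was found at 0.786% of the tested probe sets, and PAT1 was one of these 51. A difference of that size in the other direction was found at 0.0616%.

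**Figure D3:**
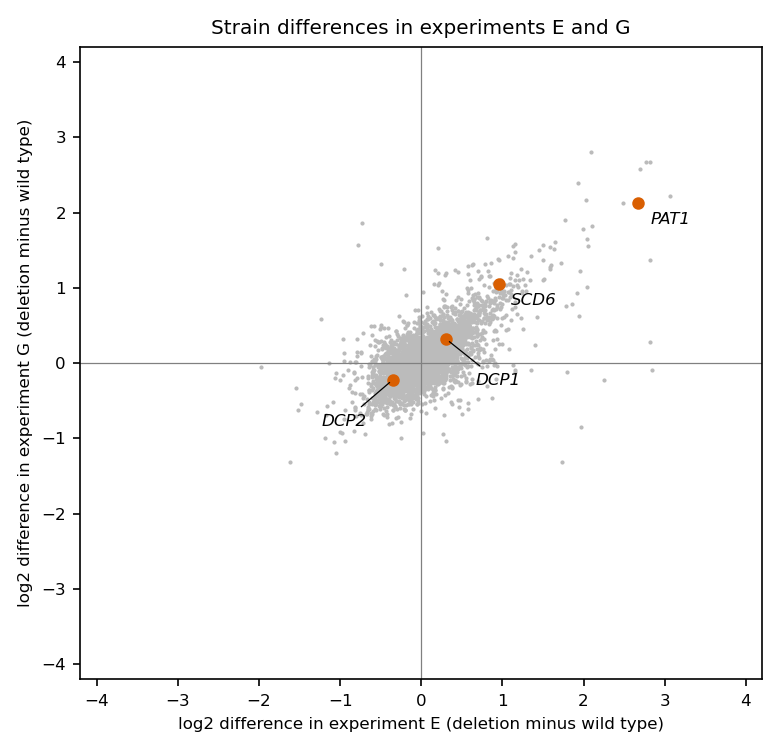
Log2 difference between the edc3 deletion and wild type in experiment E (x axis) and experiment G (y axis) for each tested probe set except EDC3 (grey, with 1 probe set outside the plotted range), with PAT1, SCD6, DCP1 and DCP2 in orange. PAT1 lies at the upper right end at 2.67 and 2.13, SCD6 further in at 0.96 and 1.05, and DCP1 nearer the centre at 0.31 and 0.32.

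In both E and G, 4 other probe sets had a difference at least as large as that of PAT1. The annotation assigned 1 of them to a single gene, YDR034C-A. Its log2 differences were 2.70 in E and 2.58 in G, and 0.06 to 0.14 in the other experiments. Whether this probe set also detects other transcripts was not examined here. The genes whose log2 signals followed PAT1 most closely over the 10 arrays were RPL7B, a ribosomal protein gene with a closely similar copy that its probe set may also detect, with a Pearson correlation of 0.975, ERG29 with 0.969, CYC8, a transcriptional corepressor gene, with 0.964, KAP104, a nuclear import receptor gene, with 0.961, and PPH22, a protein phosphatase gene, with 0.958. All 5 shared the low wild-type arrays of E and G: ERG29, for example, had 69.4 and 78.3 on the deletion arrays of E and G, against 16.1 and 22.2 on the wild-type arrays, with 65.9 to 85.5 on the other 8 arrays. SCD6 was the 15th most similar of all tested probe sets, with a correlation of 0.939, and DCP1 had one of 0.760. These correlations are over 10 arrays that include the same 2 low ones, and are given as a description.

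The 3′ to 5′ signal ratio of the control gene SRB4, a measure of RNA integrity and labelling, had a log2 value of 3.58 and 3.22 on the deletion arrays of E and G, against 4.40 and 3.44 on the wild-type arrays, with 2.39 to 3.50 on the 6 arrays of experiments A to C. The wild-type array of E was the highest of the 10, and that of G lay under the wild-type array of C. The value for SPT15 was 2.28 and 2.41 on the deletion arrays of E and G, against 2.56 and 2.57 on the wild-type arrays, with 2.11 to 2.41 in A to C, so that the 2 arrays low for PAT1 and SCD6 were the 2 highest of the 10. The value for ACT1 was 0.91 and 0.66 on the deletion arrays of E and G, against 0.99 and 0.84 on the wild-type arrays, with 0.60 to 0.92 in A to C. The part of RNA quality in the low PAT1 and SCD6 signals was not tested. The instrument records list 1 scan with pixels of 2.5 µm for both arrays of experiment E and 2 scans with pixels of 3 µm for all arrays of A and B, with no difference between the strains of these experiments. For C these settings are blank and for G no record was used here, so those of G are unknown.

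XRN1 (YGL173C), the gene of the main cytoplasmic 5′-to-3′ exonuclease, had the smallest standard error of the 8 genes. Its signal was 648.6, 573.1, 607.5, 662.1 and 680.3 on the deletion arrays of A, B, C, E and G, against 639.2, 545.9, 588.3, 633.2 and 623.8 on the wild-type arrays. The deletion array was higher in all 5 experiments, by 1.01-fold to 1.09-fold. The log2 difference of 0.07 ± 0.08 (SE, exact permutation p = 0.325) had a 95% interval from 0.926-fold to 1.18-fold. A 1.5-fold change in either direction lay outside the interval, as it did for DCP1, DCP2, EDC2, DHH1 and DCS1 but not for PAT1 and SCD6.

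DCS1 (YLR270W), the gene of the scavenger enzyme, moved with the experiment more than with the strain. Its signal was 236.6, 221.3, 229.0, 137.5 and 148.4 on the deletion arrays of A, B, C, E and G, against 204.7, 194.0, 205.2, 132.1 and 146.7 on the wild-type arrays. Both strains were low in E and G, where the strains differed by 1.04-fold and 1.01-fold, and the deletion array was higher by 1.12-fold to 1.16-fold in A to C. The log2 difference was 0.13 ± 0.19 (SE, exact permutation p = 0.532), with a 95% interval from 0.818-fold to 1.46-fold that narrowed to 0.999-fold to 1.19-fold with the experiment as a block. This gene was higher in the deletion in all 5 experiments, as were DCP1 and XRN1.

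**Figure D4:**
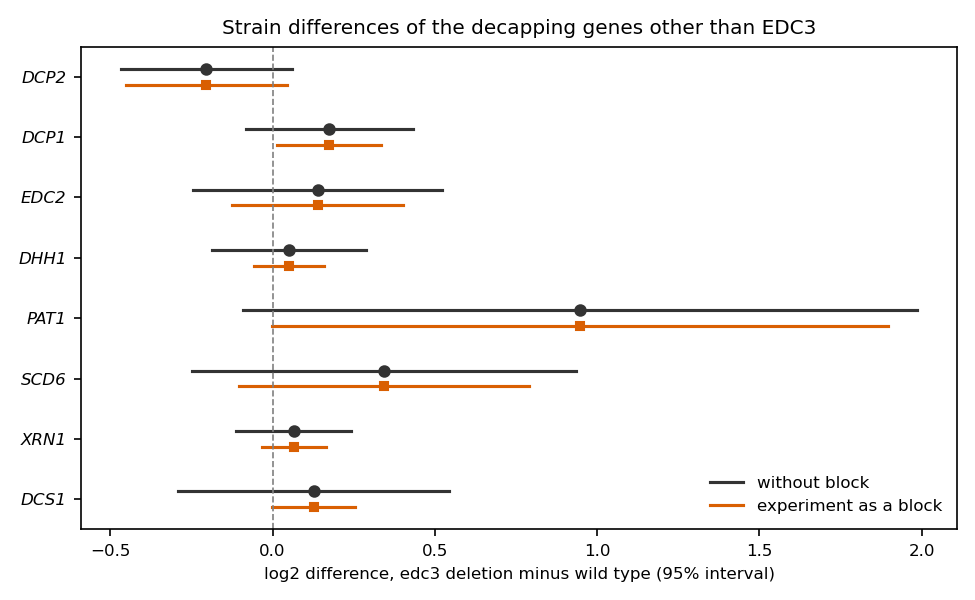
Log2 difference, edc3 deletion minus wild type (x axis), with its 95% interval from limma for the 8 tested genes other than EDC3 (y axis), without a block (dark) and with the experiment as a block (orange). All intervals without a block include 0. The widest is that of PAT1, and with the block the interval of DCP1 alone excludes 0, at an adjusted p of 0.190.

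Variation among the experiments was then tested in both strains together, by a moderated F test over the experiment letter with the strain as a covariate. EDC3 is left out here, as its deletion values are at background. Of the other 8 tested genes, 2 passed, DCS1 (adjusted p = 0.00108) and DHH1 (adjusted p = 0.0123). Over all tested probe sets 51.8% passed, a share above that of the 8 genes, and the shares were not compared by a test. The test looks for a shift shared by both strains, so a shift in 1 strain alone, as in PAT1, can be missed. In experiments E and G compared with A to C, DCS1 was 0.624-fold in the deletion strain and 0.692-fold in wild type, and DHH1 was 1.20-fold and 1.19-fold. The 2 genes ran opposite to each other over the 10 arrays (Pearson correlation -0.825), and XRN1 and EDC2 ran together (0.823). Each array contributes to all genes at once, so these correlations are descriptions of 10 arrays. PAT1 was 1.15-fold in the deletion strain and 0.215-fold in wild type in the same comparison, and SCD6 was 0.891-fold and 0.416-fold.

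In the wider set of decapping, decay and cap-binding genes, none passed the test between the strains. Of 26 listed genes, 25 were tested (NGR1 was the exception), among them LSM1 to LSM7, whose products form the ring that binds shortened poly(A) tails, the nuclear exonuclease gene RAT1 and the genes of the cap-binding translation factors. In the limma fit 0 passed, with adjusted p-values from 0.943 to 0.999, and 2 had an unadjusted p under 0.05. With the experiment as a block 0 passed and 5 had an unadjusted p under 0.05. Over all tested probe sets the shares with an unadjusted p under 0.05 were 4.82% without the block and 23.1% with it. Of the 25, 13 were higher and 12 lower, and the log2 differences had a median of 0.002 and ran from -0.22 to 0.30. The F test over experiments called 13 of the 25, close to the share of all tested probe sets.

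The 4 genes of smallest p in this set are given as values. LSM3, of the Lsm ring, had 282.7, 257.9, 265.9, 262.2 and 283.3 on the deletion arrays of A, B, C, E and G, against 341.7, 318.6, 329.8, 293.4 and 288.3 on the wild-type arrays, without overlap, and a log2 difference of -0.22 ± 0.08 (SE, adjusted p = 0.943). TIF4632, which encodes a form of the scaffold eIF4G of translation initiation, had 47.5, 49.0, 58.2, 53.7 and 47.7 on the deletion arrays, against 38.8, 42.7, 46.5, 36.0 and 44.3 on the wild-type arrays, also without overlap, and a log2 difference of 0.30 ± 0.11 (SE, adjusted p = 0.943). LSM3 and TIF4632 belong to the 1.20% of tested probe sets whose strains did not overlap. CAF20, whose product binds the cap-binding protein eIF4E and represses translation, differed by -0.19 ± 0.10 (SE), with -0.38 and -0.31 in E and G and -0.12 to -0.07 in A to C. RAT1 differed by -0.19 ± 0.11 (SE), with -0.36 to -0.22 in A to C and 0.06 and -0.11 in E and G.

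**Figure D5:**
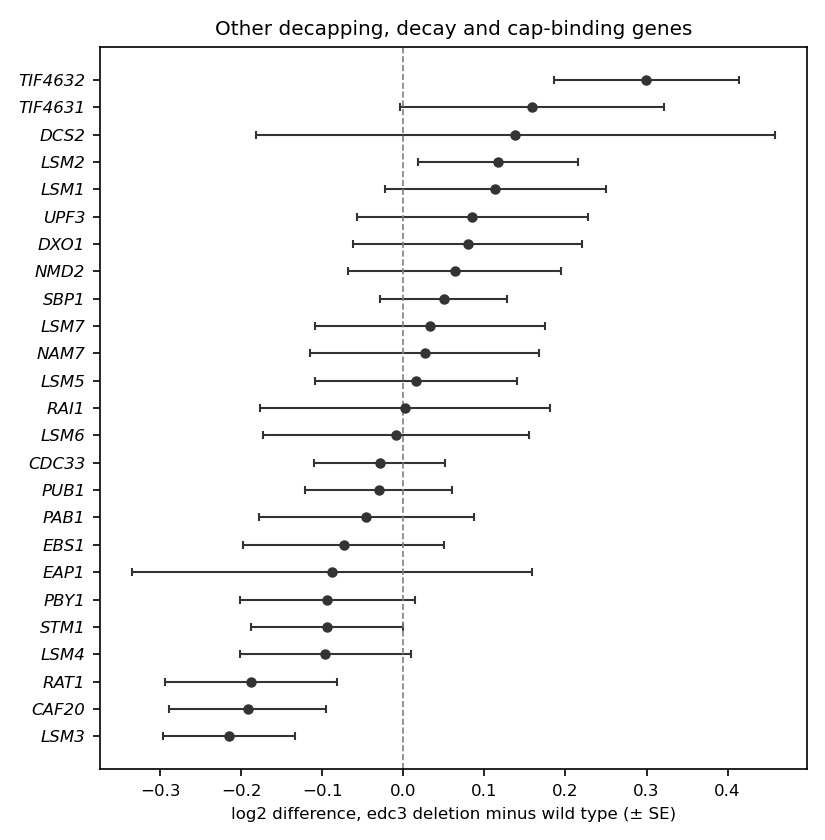
Log2 difference, edc3 deletion minus wild type, ± SE of the limma fit (x axis) for the 25 tested genes of the wider decapping, decay and cap-binding set (y axis), ordered by value. All lie between -0.22 and 0.30, and 0 of them passed the test.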

How the data were processed

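The deposited values are intensities, which the authors obtained as MAS5 signals, per the submitters' processing notes. The sources used here do not give the MAS5 version. The authors' scaling was kept, as trimmed means (2% at each end) agreed between arrays to 0.0186%. Detection calls and probe-level values were not used here. Genes were assigned to probe sets by the platform annotation, with symbols from RefSeq genes of assembly R64.

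Signals were taken to log2 with 156 zeros raised to 0.1. Left out were 60 control probe sets and the dimmest 30% by mean log2 signal (a limit of 16.8 on the linear scale), leaving 6492. The test was limma (version 3.58.1, R 4.3.3) on strain with an intensity trend and no block, with Benjamini-Hochberg adjustment over all tested probe sets and a threshold of 0.05. Exact permutation tests were two-sided, unadjusted and run for each of the genes, with 0.00794 as the smallest p that 5 arrays against 5 can give. They exchanged arrays over all experiments and so ignored the letters that pair the strains. A paired exact test, which flips the sign of the difference within experiments, gave p = 0.0625 for DCP1, XRN1 and DCS1. That is the smallest p it can give with 5 experiments. It gave 0.125 to 0.5 for DCP2, EDC2, DHH1, PAT1 and SCD6. EDC3 passed the dimness filter through its wild-type signal alone. The pairing was taken from the letters. Deviations from strain means correlated between both arrays of an experiment at 0.650, 0.713, 0.475, 0.652 and 0.692 in A, B, C, E and G. Arrays of different letters were not compared in this way, so these values do not test the pairing. Of the array pairs 0 were identical. Fits were tested on simulated data with noise drawn independently for each array. The likeness of E and G within a strain was not part of that noise, so the simulation does not test the p-values under it.

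The named genes were the 10 members, up to 4 of smallest p in the wider set, the 5 most like PAT1, those at least as far apart as PAT1 in both E and G, and marker genes. The members and lists were chosen with earlier results of these data known. The labels call the arrays biological replicates, and if E and G share cultures the p-values are too small. The number of arrays limits the precision. Alternatives are in the closing section.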

Additional observations from a re-analysis of the deposited data

How the results depend on the processing

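The count of called probe sets, 5, changed to 29 with the replicate block (experiments paired), 3 with experiments 4 and 5 (E and G) averaged and 8 with the block added. It was 3 with eBayes without trend, 106 with array weights and 10 with the chip lot as a block. Only A to C had a recorded chip lot. The arrays of E, whose lot is blank, and those of G, without a record, were each treated as a separate lot. The count was 2 in experiments 1 to 3 (A to C) alone and 3 with the block, and 1263 in experiments 4 and 5 alone and 2277 with the block. On leaving out each array it ran from 3 to 4, and on leaving out each experiment in the blocked fit from 7 to 30. EDC3 was the 1 gene called of the described genes in 26 of 29 alternatives. With the dimmest 50% left out it was not tested and 0 were called, and experiments 4 and 5 alone called 3 (EDC3, PAT1 and SCD6), or 4 with the block (DCP1 added, 0.31, adjusted p = 0.0321). In that subset 1 gene of the wider set was called, CAF20, and 4 with the block, against 0 otherwise. The fits of that subset called 19.5% of all tested probe sets, and 35.1% with the block. The EDC3 log2 difference ran from -9.71 to -4.80, smallest with an offset of 16.

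The sign of PAT1 turned to -0.020 and that of SCD6 to -0.10 in experiments 1 to 3 alone, with and without the block. With array weights PAT1 rose to 1.65 (limma adjusted p = 0.0676) and SCD6 to 0.68 (limma adjusted p = 0.150). On leaving out single arrays PAT1 ran from 0.56 to 1.21, SCD6 from 0.15 to 0.48, DHH1 from -0.00085 to 0.10 and EDC2 from -0.027 to 0.21, with the DHH1 and EDC2 signs turning without the wild-type arrays of A and B. The other members kept their direction. The F test over experiments called 1 to 3 members, with EDC3 among those tested, on leaving out each experiment and 2 in the main setting. Over all 5 experiments the pairing changed no call of a member.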

Other observations

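The marker genes often mutated in laboratory strains, HIS3, URA3, LEU2, TRP1, ADE2, LYS2 and CAN1, had overlapping signals in the strains for all 7, and 0 passed the limma test (adjusted p = 0.999). HIS3 had 54.5 to 77.4 on deletion arrays and 63.8 to 92 on wild-type arrays, and TRP1 had 52.5 to 84.8 on deletion arrays and 43.3 to 74.2 on wild-type arrays. A gap of at least 1.5-fold below the other 8 arrays was found at 75 of 6492 probe sets for the wild-type arrays of E and G, and a gap of this size above the others at 0. For the deletion arrays of E and G the counts were 1 below and 15 above.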
